A study of Rattus norvegicus with 17 samples.

Results

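The genes described here are 9 ion channel genes of the heart: the inward rectifier potassium channels Kcnj2, Kcnj3 and Kcnj11, the transient outward potassium channels Kcnd2 and Kcnd3, the delayed rectifier potassium channels Kcnq1 and Kcnh2, the sodium channel beta subunit Scn3b, and the pacemaker channel Hcn4. They were taken by name, and where a gene has several probe sets the brightest on average is used. All 9 were found among the 14506 genes that had a probe set of their own in a table of 29214 probe sets. Each had 1 probe set, so that no second reading of the same gene was available.

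Ventricular myocytes of newborn Sprague-Dawley rats, in cultures given as 5 days old, were exposed to 4 treatments. Uremic plasma, which comes from people with kidney failure, was added at 10% and had been taken before nocturnal hemodialysis (NHD, long overnight dialysis; 6 arrays) or after it (6 arrays). The other groups received control plasma (3 arrays) or phenylephrine (2 arrays), a drug that stimulates alpha-adrenergic receptors and enlarges myocytes in culture. The share at which control plasma was added, the dose and medium of phenylephrine and the length of exposure are not in the labels, which call the replicates biological without saying whether they are separate cultures or plasma donors. All p-values thus rest on the scatter among these arrays, which may be technical, and precision is limited by how few arrays there are.

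Potassium channels return the myocyte to its resting potential after each beat. Kcnd channels carry the fast outward current at the start of repolarization, and Kcnq1 and Kcnh2 carry the slower currents that end the action potential. Of the Kcnj channels here, Kcnj2 holds the resting potential of ventricular myocytes. Sodium channels carry the upstroke, with beta subunits such as Scn3b setting their gating and their number at the membrane. Hcn4 carries the inward current that drives automatic beating in pacemaker cells and is known to be expressed in immature ventricle. In rodents the Kcnd current dominates ventricular repolarization, and its rise and the fall of Hcn4 are part of ventricular maturation after birth.

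RNA levels are given as log2 values made by the authors with RMA, on which 1 unit is a doubling, and differences are log2 differences of group means with the standard error of a limma fit over all 17 arrays. A difference was called when its p, adjusted by the Benjamini-Hochberg method over all 29214 probe sets, was under 0.05. Array medians lay between 6.89 and 7.03. Before NHD arrays were the most scattered, with a median SD per probe set of 0.249, against 0.160 for the after NHD group, 0.139 for control plasma and 0.0941 for phenylephrine. Myocyte markers were bright on every array, with Tnnt2, cardiac troponin T, at 13.39 to 13.65 and Myh6, the fast myosin heavy chain, at 12.11 to 13.21. The mean of 14 ventricular myocyte markers was 12.21 to 12.22 with control plasma, 12.33 to 12.88 before NHD, 12.60 to 12.99 after NHD and 12.66 to 12.68 with phenylephrine. The scale has no zero, and RNA of whole cultures cannot tell fewer cells of a type from less RNA per cell.

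Of the 9 channel genes, 5 had more RNA with after NHD plasma than with control plasma and 1 had less. Kcnd3 was 3.35-fold, Kcnj2 2.38-fold, Kcnq1 2.19-fold, Hcn4 1.64-fold and Kcnj11 1.54-fold higher, and Scn3b was 4.86-fold lower. Over all probe sets, 28.2% were called in this comparison, 12.9% higher and 15.3% lower. With before NHD plasma, Kcnd3, Kcnj2 and Hcn4 were called higher than control plasma and 0 genes lower, beside 4.93% of all probe sets (2.88% higher and 2.05% lower). Between after and before NHD plasma, limma called 0 of the 9, beside 0.397% of all probe sets, and 3 had an unadjusted p under 0.05. Kcnj3, Kcnd2 and Kcnh2 were called in none of the 6 comparisons. The plasma and phenylephrine comparisons with control share the same 3 control arrays.

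**Figure D1:**
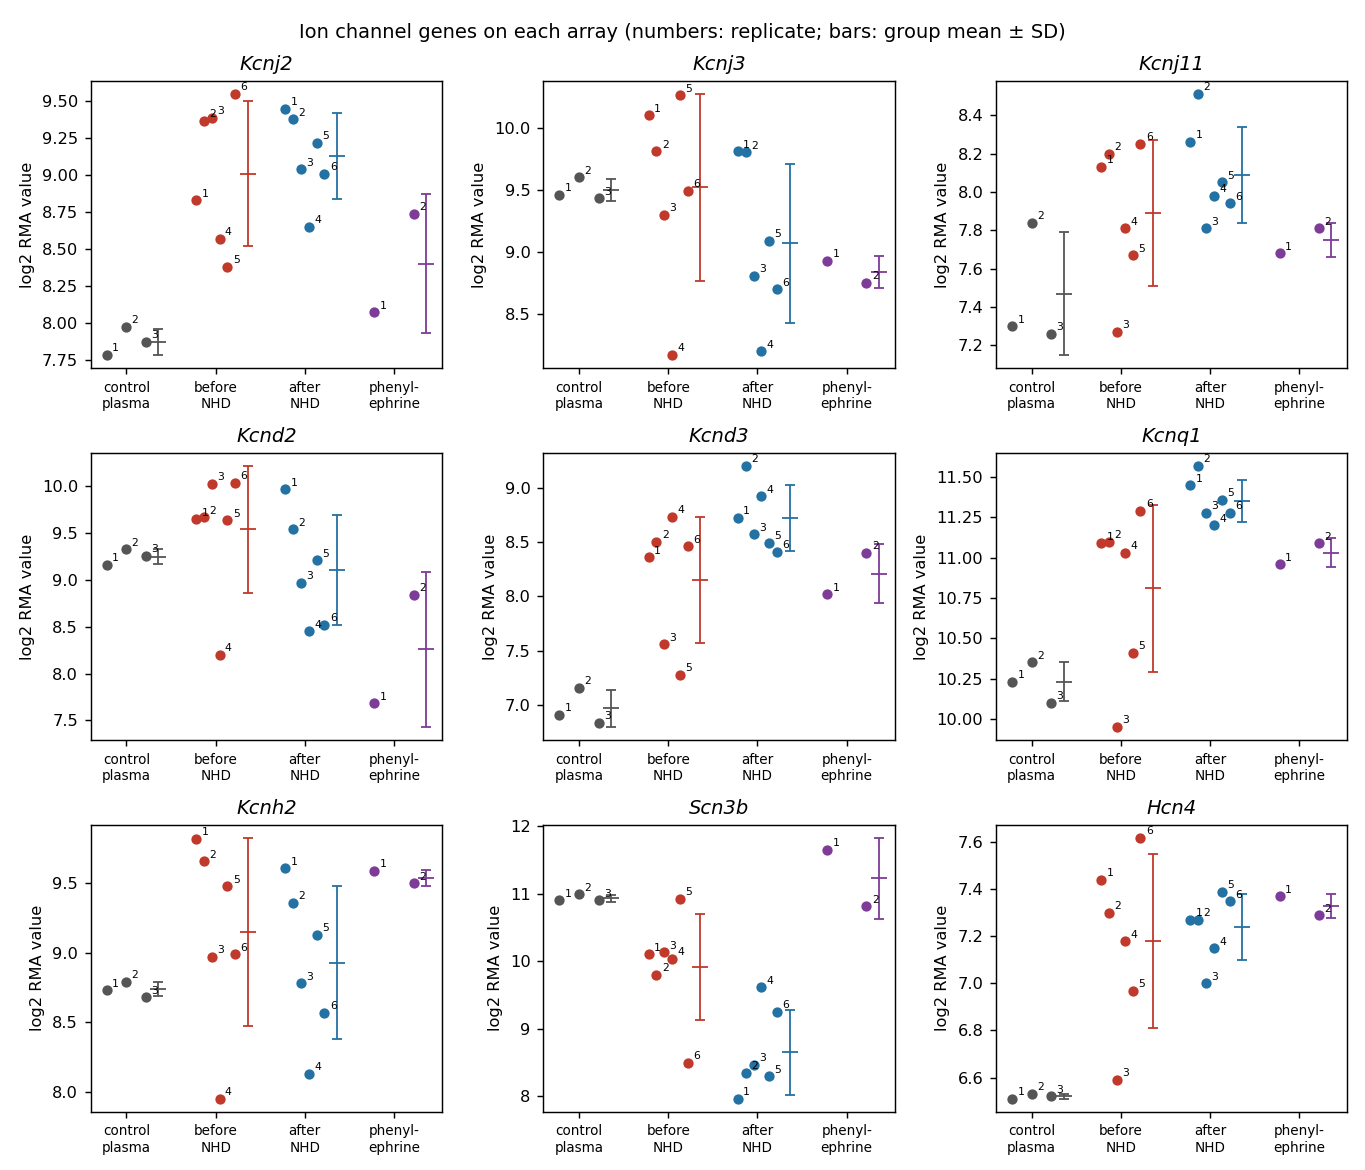
Log2 RMA values of the 9 channel genes on each of the 17 arrays, by treatment. Points are arrays with their replicate number, and bars are the group mean ± SD. Control arrays lie within 0.32 log2 units of each other for every gene but Kcnj11 (0.58), and Kcnj2, Kcnd3 and Hcn4 lie above all control arrays with either uremic plasma.

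Kcnj2 encodes the main channel of the inward rectifier current that holds the resting potential of ventricular myocytes. Its log2 values with control plasma were 7.78, 7.97 and 7.87. They ran from 8.38 through a median of 9.10 to 9.55 before NHD and from 8.65 through 9.13 to 9.45 after NHD, while phenylephrine gave 8.07 and 8.74. Every array with uremic plasma was above every control array, and the before and after NHD values overlapped. Kcnj2 was higher before NHD than with control plasma by 1.14 ± 0.25 log2 units (adjusted p = 0.0256) and after NHD by 1.25 ± 0.25 (adjusted p = 0.00179). The before NHD call was lost without before replicate 2 (adjusted p = 0.0548) and without control replicates 1 and 3 (0.154 and 0.144), while the difference stayed at 1.07 to 1.14. The adjustment runs over all probe sets, of which 4.93% were called in this comparison with all arrays. Without control replicate 1 that share was 0%, and without before replicate 5 it was 17.5%, which bears on such calls of every gene here. Phenylephrine exceeded control plasma by 0.53 ± 0.32 (adjusted p = 0.262) and was below before and after NHD plasma by differences of -0.61 ± 0.28 and -0.72 ± 0.28, none of them called. In descending order the means were 9.13 after NHD, 9.01 before NHD, 8.40 with phenylephrine and 7.87 with control plasma, and no neighbours in that order differed past the threshold.

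Kcnj11 encodes the pore subunit of the ATP-sensitive potassium channel, which opens when cell energy falls. Control arrays were at 7.30, 7.84 and 7.26, before NHD arrays at 7.27 to 8.25 with a median of 7.97, after NHD arrays at 7.81 to 8.51 with a median of 8.02, and phenylephrine arrays at 7.68 and 7.81. Control replicate 2 lay among the values of the other groups, so that no plasma group was apart from control. After NHD plasma exceeded control plasma by 0.63 ± 0.21 (adjusted p = 0.032), and before NHD plasma by 0.42 ± 0.21 (adjusted p = 0.21), which was not called. The after NHD call was lost without control replicates 1 and 3 (adjusted p = 0.143 and 0.148) and without after replicates 1 and 2 (0.0581 and 0.0622). Its neighbours in the order after NHD, before NHD, phenylephrine and control plasma did not differ past the threshold.

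Kcnj3 encodes a subunit of the acetylcholine-activated potassium channel, known above all from atrial and nodal cells. Its values were 9.46, 9.60 and 9.43 with control plasma and 8.93 and 8.75 with phenylephrine. Before NHD arrays ran from 8.17 to 10.26 (median 9.65) and after NHD arrays from 8.20 to 9.81 (median 8.95), so that both uremic groups lay on either side of the control arrays. Differences from control plasma were 0.02 ± 0.39 before NHD, -0.43 ± 0.39 after NHD (95% confidence interval -1.26 to 0.40) and -0.66 ± 0.51 with phenylephrine, and none was called. The order of means was before NHD, control plasma, after NHD and phenylephrine (9.52, 9.50, 9.07 and 8.84), with no neighbours past the threshold. Its partner in the same channel, Kcnj5, was higher than control plasma by 1.32 ± 0.32 before NHD, 1.52 ± 0.32 after NHD and 1.45 ± 0.41 with phenylephrine (adjusted p = 0.0322, 0.0026 and 0.0213).

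Kcnd3 and Kcnd2 encode the Kv4.3 and Kv4.2 channels of the transient outward current. Kcnd3 had log2 values of 6.91, 7.16 and 6.84 with control plasma and 8.02 and 8.40 with phenylephrine. Before NHD arrays lay between 7.28 and 8.73 (median 8.41) and after NHD arrays between 8.41 and 9.20 (median 8.64). All 14 arrays of the other treatments were above all 3 control arrays, with before replicates 5 and 3, at 7.28 and 7.56, the nearest to them. Kcnd3 was higher than control plasma by 1.18 ± 0.27 before NHD (adjusted p = 0.0294), 1.75 ± 0.27 after NHD (adjusted p = 0.000561) and 1.24 ± 0.35 with phenylephrine (adjusted p = 0.0215). The after NHD call held when each of the 17 arrays was left out in turn. The before NHD call was lost without before replicates 1, 2 and 6 (adjusted p = 0.0506, 0.0621 and 0.0582) and control replicates 1 and 3 (0.162 and 0.155), and that with phenylephrine without control replicates 1 and 3 (0.0601 and 0.0651) and phenylephrine replicates 1 and 2 (0.0733 and 0.175). The order of means was after NHD, phenylephrine, before NHD and control plasma, at 8.72, 8.21, 8.15 and 6.97, and of the neighbours only before NHD and control plasma differed past the threshold.

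Kcnd2 was called in none of the comparisons. Control arrays were at 9.16, 9.33 and 9.26, within the range of before NHD arrays (8.20 to 10.04, median 9.66) and of after NHD arrays (8.45 to 9.97, median 9.09). Phenylephrine arrays were at 7.68 and 8.84, both below control. The differences from control plasma were 0.29 ± 0.39 before NHD, -0.14 ± 0.39 after NHD (95% confidence interval -0.96 to 0.68) and -0.99 ± 0.50 with phenylephrine (adjusted p = 0.183). Phenylephrine minus before NHD was -1.28 ± 0.45 (adjusted p = 0.121), and passed at -1.55 ± 0.35 without before replicate 4 (adjusted p = 0.0154). Means ran from 9.54 before NHD through 9.25 with control plasma and 9.11 after NHD to 8.26 with phenylephrine, and no neighbours differed past the threshold. The difference between Kcnd3 and Kcnd2 in their response was not tested.

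The RefSeq promoter table (build GRCr8) held 3 of the 9 genes, and the 250 bases before their transcription starts are shown because Kcnj2 and Kcnd3 were the members called higher with both uremic plasmas by over 1 log2 unit, while Kcnd2 was not called. Capitals mark matches, on both strands, to the GC box GGGCGG, the CCAAT box, the E-box CANNTG, the motif GATA, the TATA box (TATAAA) and the MEF2 core. Matches that overlap run together. The windows are chr10:96559975-96560224 for Kcnj2, chr2:195626066-195626315 for Kcnd3 and chr4:50742235-50742484 for Kcnd2, all on the + strand.
Kcnj2: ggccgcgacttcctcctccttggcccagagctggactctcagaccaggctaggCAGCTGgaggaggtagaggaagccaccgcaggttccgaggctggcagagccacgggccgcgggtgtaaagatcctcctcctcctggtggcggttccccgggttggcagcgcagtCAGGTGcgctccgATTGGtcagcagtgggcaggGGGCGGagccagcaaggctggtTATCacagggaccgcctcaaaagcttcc
Kcnd3: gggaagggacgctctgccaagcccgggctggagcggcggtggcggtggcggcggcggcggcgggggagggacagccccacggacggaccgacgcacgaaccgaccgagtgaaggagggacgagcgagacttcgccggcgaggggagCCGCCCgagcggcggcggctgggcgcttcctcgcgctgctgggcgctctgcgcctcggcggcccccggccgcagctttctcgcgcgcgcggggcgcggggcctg
Kcnd2: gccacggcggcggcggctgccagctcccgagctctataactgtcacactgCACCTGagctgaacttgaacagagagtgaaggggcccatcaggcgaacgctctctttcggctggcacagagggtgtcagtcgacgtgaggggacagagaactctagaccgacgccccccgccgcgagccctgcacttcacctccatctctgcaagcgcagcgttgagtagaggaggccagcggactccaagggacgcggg

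The Kcnd3 window was 79.6% G and C, more than in 98.8% of the 33469 promoters of that length in the table, and held 1 GC box, 104 bases before the start. The Kcnj2 window (66.0% G and C) held 1 GC box, 1 CCAAT box, 2 E-boxes and 1 GATA match. The Kcnd2 window (64.0%) held 1 E-box and no GC box. Of all promoters, 30.5% held a GC box, 34% a CCAAT box, 65.5% an E-box, 55.9% GATA, 12.9% TATAAA and 3.41% the MEF2 core. The last pair had no match in the 3 windows. A match is a run of letters and not a measured binding site.

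Kcnq1 encodes the channel of the slow delayed rectifier current. With control plasma it read 10.23, 10.35 and 10.10, and with phenylephrine 10.96 and 11.09. Before NHD arrays ran from 9.95 to 11.29 (median 11.06), with replicates 3 and 5, at 9.95 and 10.41, near the control arrays and the other 4 at 11.03 or more. After NHD arrays were close together at 11.20 to 11.57 (median 11.32), above all control and phenylephrine arrays. Kcnq1 was higher after NHD than with control plasma by 1.13 ± 0.22 (adjusted p = 0.00179), a call that held with each of the 17 arrays left out. The before NHD difference of 0.59 ± 0.22 was not called (adjusted p = 0.12). It passed without before replicate 3 (0.76, adjusted p = 0.0195) or 5 (0.67, adjusted p = 0.0491, with 17.5% of all probe sets called). That of phenylephrine, 0.80 ± 0.29, did not pass either (adjusted p = 0.0613), and passed without before replicates 3, 5 and 6 (0.011, 0.0494 and 0.0441). From the highest mean to the lowest the order was after NHD, phenylephrine, before NHD and control plasma (11.35, 11.03, 10.81 and 10.23), with no neighbours past the threshold.

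Kcne1, the beta subunit that turns the Kcnq1 current into its slow cardiac form, was higher after NHD than with control plasma by 0.48 ± 0.17 (adjusted p = 0.04). It was lower with phenylephrine than with control, before NHD and after NHD plasma, by differences of -0.65 ± 0.22, -0.77 ± 0.19 and -1.13 ± 0.19 (adjusted p = 0.0458, 0.0323 and 0.00949). Kcnq1 itself was not called in any of these 3 comparisons with phenylephrine.

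Kcnh2 encodes the channel of the rapid delayed rectifier current. Control arrays read 8.73, 8.79 and 8.68 and phenylephrine arrays 9.59 and 9.50. Before NHD arrays spread from 7.95 to 9.82 (median 9.23) and after NHD arrays from 8.13 to 9.61 (median 8.96), around the control arrays on both sides. The differences from control plasma were 0.41 ± 0.35 before NHD, 0.19 ± 0.35 after NHD and 0.81 ± 0.45 with phenylephrine (adjusted p = 0.482, 0.712 and 0.227). Both phenylephrine arrays were above all 3 control arrays, while 56.9% of all probe sets had no overlap between these groups in one direction or the other. From the highest mean to the lowest the order was phenylephrine, before NHD, after NHD and control plasma (9.54, 9.15, 8.93 and 8.74). A fit of the phenylephrine and control arrays alone, with SDs of 0.06 and 0.05, gave 0.81 ± 0.10 (adjusted p = 0.0016). This fit left out the before and after NHD arrays, whose SDs of 0.68 and 0.55 enter the main fit.

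Scn3b, the beta 3 subunit of the cardiac sodium channel, fell below control with after NHD plasma and was the 1 member with a called decrease. Control arrays read 10.90, 10.99 and 10.90 and phenylephrine arrays 11.65 and 10.81. Before NHD arrays ran from 8.49 (replicate 6) to 10.92 (replicate 5) with a median of 10.06, and after NHD arrays from 7.96 to 9.61 with a median of 8.40. All after NHD arrays were below all control and phenylephrine arrays, and all but 1 before NHD array were below the control arrays. Scn3b was lower after NHD than with control plasma by a log2 difference of -2.28 ± 0.42 (adjusted p = 0.00119), and higher with phenylephrine than after NHD by 2.58 ± 0.48 (adjusted p = 0.0151). Only 0.63% of probe sets differed as much as Scn3b in the first of these comparisons and 0.0274% in the second, in either direction. The first call held with each array left out. The second was lost without phenylephrine replicate 1 (2.15, adjusted p = 0.453) or 2 (3.0, adjusted p = 0.092).

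Against control plasma, the before NHD difference of Scn3b was -1.02 ± 0.42 (adjusted p = 0.142). Without before replicate 5, where 17.5% of all probe sets were called, it was -1.22 ± 0.39 (adjusted p = 0.0425). After minus before NHD it was -1.26 ± 0.34 (adjusted p = 0.0844). Scn3b was lower after NHD in 5 of 6 same-numbered samples, which the labels do not tie to one donor or culture. The after minus before NHD difference passed without before replicates 4 and 6 (adjusted p = 0.0463 and 0.00807) or after replicate 4 (0.0399), at -1.24 to -1.54. Without before replicate 6, 9.21% of all probe sets were called in this comparison, against 0.397% with all arrays. Phenylephrine, control, before NHD and after NHD plasma had means of 11.23, 10.93, 9.91 and 8.65, and no neighbours in that order differed past the threshold. Scn4b, another beta subunit, was higher than control plasma by 1.37 ± 0.46 after NHD and 1.85 ± 0.60 with phenylephrine (adjusted p = 0.0362 and 0.0392).

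Hcn4 had the tightest control values of the 9 genes, at 6.51, 6.53 and 6.52. Before NHD arrays ran from 6.59 to 7.62 (median 7.24) and after NHD arrays from 7.0 to 7.39 (median 7.27), and phenylephrine arrays read 7.37 and 7.29. Every array of the other 3 treatments was above every control array, before replicate 3 by the least. Hcn4 was higher than control plasma by 0.66 ± 0.17 before NHD (adjusted p = 0.0361), 0.72 ± 0.17 after NHD (adjusted p = 0.00493) and 0.81 ± 0.21 with phenylephrine (adjusted p = 0.0158). The 3 treated groups, with means of 7.33, 7.24 and 7.18 for phenylephrine, after NHD and before NHD, did not differ from each other past the threshold, and the 95% confidence interval of after minus before NHD was -0.23 to 0.34. The after NHD call held with each array left out. That with phenylephrine was lost without either of its arrays (adjusted p = 0.112 and 0.0846).

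The before NHD call of Hcn4 stood close to the threshold. It was lost without before replicates 1, 2, 4 and 6 (adjusted p = 0.0608, 0.0711, 0.0547 and 0.0643) and after replicate 5 (0.0501), without control replicates 1, 2 and 3 (0.175, 0.0604 and 0.161) and without either phenylephrine array (0.0511 each), while the difference stayed at 0.58 to 0.67. Markers of nodal and conduction cells had a mean of 6.69 to 6.83 with control plasma, 6.57 to 7.12 before NHD and 6.63 to 6.94 after NHD, and 6.87 and 7.07 with phenylephrine. Of the 8 measured, 0 were higher and 1 was lower after NHD than with control plasma, beside 12.9% and 15.3% of all probe sets. With phenylephrine Gja5 was called higher (0.80 ± 0.26, adjusted p = 0.0431) and 0 were lower, beside 8.54% and 10.2% of all probe sets. Before NHD 0 were called, beside 4.93%. Vsnl1 differed by 0.98 ± 0.40 after NHD and 1.23 ± 0.52 with phenylephrine, neither called (adjusted p = 0.0809 and 0.112). Median differences of the list from control plasma were 0.06 before NHD, -0.09 after NHD and 0.10 with phenylephrine. Shox2, a transcription factor of the sinus node, read 5.06 to 5.41 on all arrays. Of the other pacemaker channel genes, Hcn2, looked up after its values were seen, differed from control plasma by 0.16 before NHD and 0.14 after NHD, neither called, and Hcn3 was lower after NHD by a difference of -0.27 ± 0.09 (adjusted p = 0.0345).

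**Figure D2:**
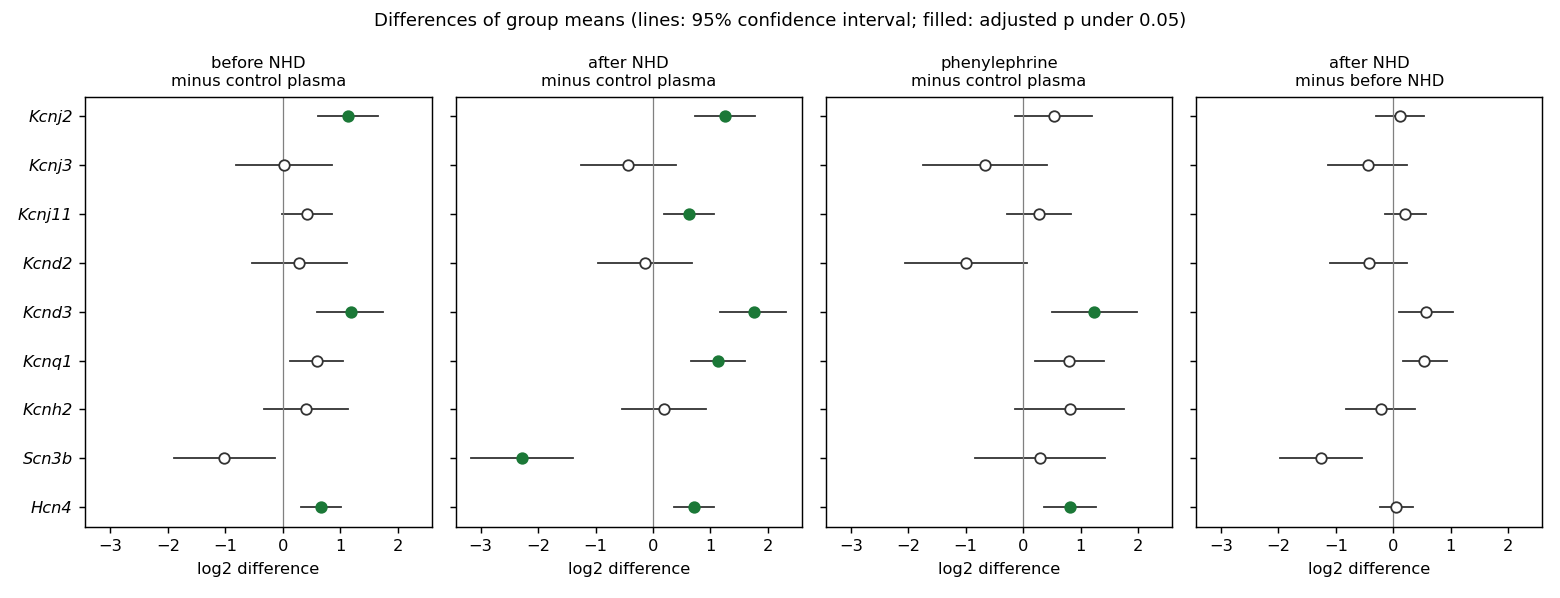
Log2 differences of group means for the 9 channel genes in 4 comparisons. Lines are 95% confidence intervals and filled points have an adjusted p under 0.05 over all probe sets: 3 genes before NHD, 6 after NHD and 2 with phenylephrine against control plasma, and 0 between after and before NHD.

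Among the 9 genes, groups did not overlap for 3 before NHD, 5 after NHD and 7 with phenylephrine, each against control plasma, while 8.39%, 33.4% and 56.9% of all probe sets did not overlap in these comparisons. With phenylephrine, Kcnd3 and Hcn4 were called, beside 18.7% of all probe sets (8.54% higher and 10.2% lower). Against before NHD plasma, phenylephrine gave 0 calls in limma among the 9 (3 with an unadjusted p under 0.05), beside 4.34% of all probe sets (1.98% higher and 2.36% lower), and against after NHD plasma 1, Scn3b, beside 0.979%. The median difference of the 9 genes from control plasma was 0.42 before NHD, 0.63 after NHD and 0.53 with phenylephrine, and that of all probe sets was -0.06, -0.077 and -0.074. The 9 genes were chosen with earlier results of these data known. Each was brighter than at least 51.7% of probe sets, and 13581 of all probe sets had no gene symbol. Ventricular myocyte markers moved with the same groups: 8 of 14 were called higher after NHD, 3 before NHD and 4 with phenylephrine against control plasma, and 0 lower. Of 11 markers of dividing cells, 10 were called higher after NHD and with phenylephrine and 0 before NHD. Of all probe sets, 12.9% were called higher after NHD, 2.88% before NHD and 8.54% with phenylephrine. The part of either marker list in the channel differences was not tested.

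The direct comparison sets after NHD plasma against before NHD plasma. Since the labels do not tie these samples to shared donors or cultures, dialysis cannot be told apart from donor or culture differences. The largest differences among the 9 genes were those of Scn3b (-1.26 ± 0.34), Kcnd3 (0.57 ± 0.22, adjusted p = 0.178) and Kcnq1 (0.54 ± 0.18, adjusted p = 0.125). Kcnq1 passed without before replicate 6 (0.64, adjusted p = 0.036), where 9.21% of all probe sets were called, against 0.397% with all arrays. Of the same-numbered samples, 5 of 6 were higher after NHD for Kcnd3, Kcnq1 and Kcnj11, 4 for Kcnj2, 2 for Kcnd2 and Hcn4, and 1 for Kcnj3, Kcnh2 and Scn3b. In the same comparison 9 of 11 dividing cell markers were called higher, with a median difference of 2.18. So was 1 of 12 fibroblast markers, S100a4, by 1.03 ± 0.20 (adjusted p = 0.04), while 0 of 14 ventricular myocyte markers were called. Of all probe sets, 0.288% were called higher. The part of these markers in the channel differences was not tested. Kcnj2 and Hcn4 differed by 0.11 ± 0.20 and 0.05 ± 0.14, with 95% confidence intervals of -0.31 to 0.54 and -0.23 to 0.34. In the set of 9, the SD was smaller after than before NHD for every gene, from 0.52 to 0.13 for Kcnq1, 0.58 to 0.30 for Kcnd3 and 0.37 to 0.14 for Hcn4, as was the SD of the median probe set.

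**Figure D3:**
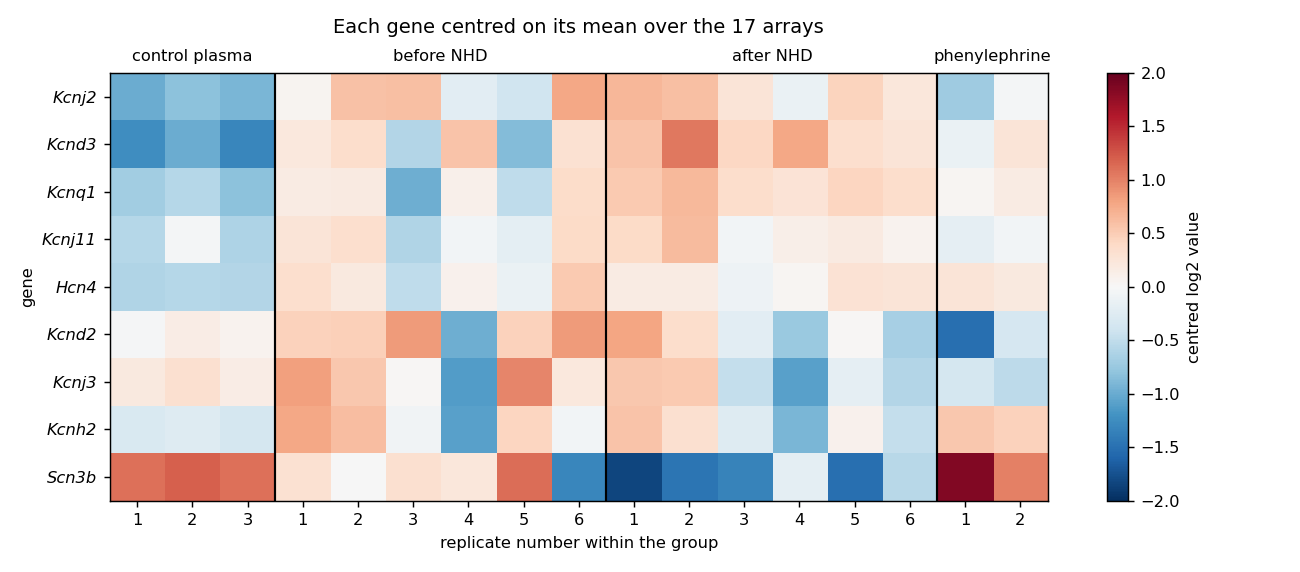
Log2 values of the 9 channel genes on the 17 arrays, each gene centred on its mean over all arrays. Red is above the gene's mean and blue below. Kcnd2, Kcnj3 and Kcnh2 are low on the arrays numbered 4 of both uremic groups, and Scn3b is high with control plasma and phenylephrine and low after NHD.

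Kcnj3, Kcnd2 and Kcnh2 were low in the samples numbered 4 of both uremic groups. Before replicate 4 was the lowest before NHD array for each of these genes, at 8.17, 8.20 and 7.95, and after replicate 4 was the lowest after NHD array, at 8.20, 8.45 and 8.13. On the same arrays Kcnd3 read 8.73 and 8.92, the highest and the second highest value of its groups. Kcnip2, the partner that brings Kv4 channels to the membrane, was looked up after these values were seen. It read 6.47 and 6.64 on these arrays, 8.14 to 9.44 on the other before NHD arrays and 7.14 to 10.04 on the other after NHD arrays. The fibroblast marker mean was 6.86 and 6.93 on the arrays numbered 4, 6.70 to 9.26 on the other before NHD arrays and 7.20 to 9.15 on the other after NHD arrays. The labels do not tie same-numbered samples to one donor or one culture. The dividing cell marker mean was 9.39 on before replicate 4, the highest of its group, and 9.32 on after replicate 4, the lowest of its group, and the part of these markers was not tested. Without the samples numbered 4 the counts of called genes against control plasma were again 3 before NHD and 6 after NHD.

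The other genes of the same kinds of channel, from lists of 76 genes of which 63 were measured, are given for comparison. Against control plasma 3 were higher and 0 lower before NHD, 11 were higher and 4 lower after NHD, and 5 were higher and 2 lower with phenylephrine. Their median differences were -0.02, 0.08 and 0.08. Of all probe sets, 2.88% were higher and 2.05% lower before NHD, 12.9% and 15.3% after NHD, and 8.54% and 10.2% with phenylephrine. Between after and before NHD plasma limma called 0 of the 63 listed genes, beside 0.397% of all probe sets. Among potassium channel pore genes, Kcnk1, a background channel, was higher by 1.01 ± 0.23 before and 1.52 ± 0.23 after NHD, and Kcnn4, a calcium-activated channel known from non-excitable cells, was lower after NHD (-0.76 ± 0.16) and with phenylephrine (-0.75 ± 0.20). Kcnd1, the third Kv4 gene, was lower after NHD (-0.59 ± 0.19). Of 24 such genes, 2 were higher and 2 lower after NHD.

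Of 18 accessory subunits of potassium channels, 4 were higher and 1 lower after NHD, beside 12.9% and 15.3% of all probe sets. Abcc8, a sulfonylurea receptor that partners Kcnj11, was higher by 1.93 ± 0.39 (adjusted p = 0.00206), and Kcnab3, a cytoplasmic beta subunit, by 1.35 ± 0.22. Kcne2, a beta subunit of Kcnh2 and other channels, was lower (-0.62 ± 0.17). Among 13 sodium channel genes and partners, Rangrf, which helps the main cardiac sodium channel reach the membrane, was higher by 0.85 ± 0.23 before and 1.23 ± 0.23 after NHD, and Scn1a was higher with phenylephrine (1.43 ± 0.44). Fgf13, which binds sodium channels, was lower with phenylephrine than before and after NHD (-0.58 ± 0.12 and -0.63 ± 0.12). Among 8 pacemaker genes and partners, Cav3, Cav1 and Popdc3 were higher after NHD, by 0.55 ± 0.13, 1.67 ± 0.50 and 0.69 ± 0.21, and Cav3 and Popdc3 were also called with phenylephrine.

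**Figure D4:**
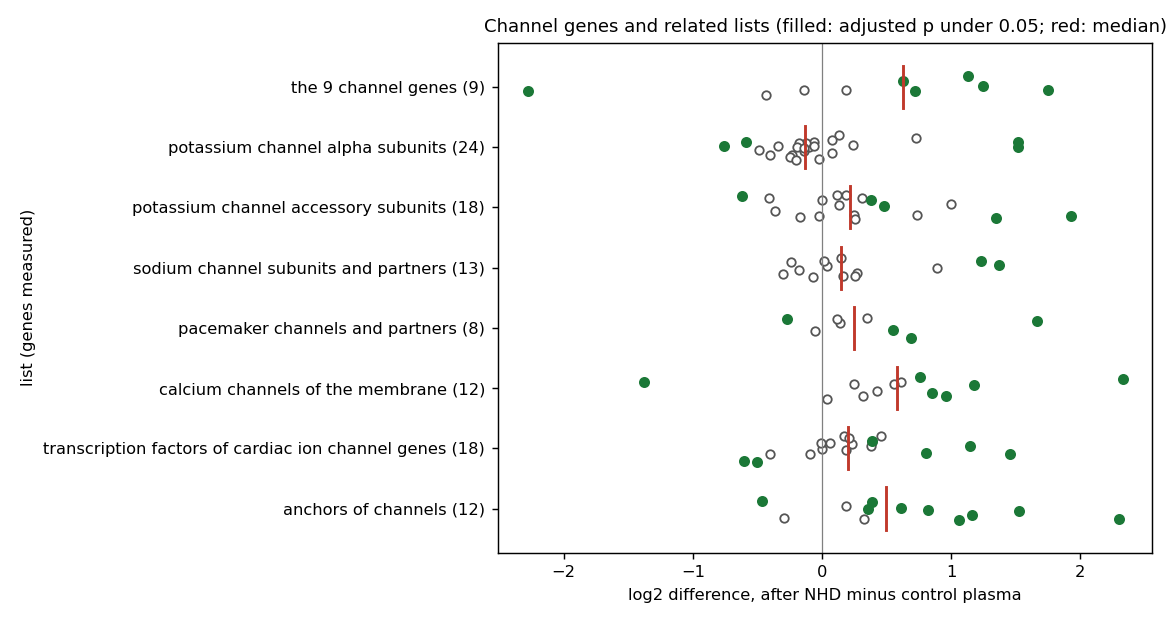
Log2 differences of after NHD minus control plasma for the 9 channel genes and for 7 related lists, 1 point a gene with small random vertical shifts. Filled points have an adjusted p under 0.05 and red bars are list medians, from -0.13 for other potassium channel pore genes to 0.63 for the 9 genes. The genes and lists were chosen with earlier results of these data known, so the medians only describe them.

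Membrane calcium channel genes had 5 of 12 higher and 1 lower after NHD. Beside this list and the following ones, 12.9% of all probe sets were higher and 15.3% lower after NHD. Cacnb2, a beta subunit of the L-type channel, was higher by 0.81 ± 0.20 before NHD, 1.18 ± 0.20 after NHD and 1.13 ± 0.26 with phenylephrine. Rrad, which restrains the L-type channel, was higher by 1.6 ± 0.41, 2.33 ± 0.41 and 1.67 ± 0.54, and Cacna2d1 was lower after NHD (-1.38 ± 0.31). Of 12 genes that anchor channels, 8 were higher and 1 lower after NHD, among them Ank3 (1.16 ± 0.20) and Akap6 (0.82 ± 0.15). Sntb1, a syntrophin, was higher by 2.30 ± 0.37 and Gja1, connexin 43, by 1.53 ± 0.35. Of 18 transcription factors known to act on cardiac channel genes, 4 were higher and 2 lower after NHD. Irx4, a factor of ventricular identity, was higher by 1.15 ± 0.30 and Gata4 by 1.46 ± 0.30, while Isl1 and Hand2 were lower (-0.50 ± 0.10 and -0.60 ± 0.15). Irx3 and Irx5, factors that control Kcnd2 in the mouse ventricle, were higher with phenylephrine than with control plasma by 0.74 ± 0.13 and 0.83 ± 0.22. In that comparison Kcnd2 differed by -0.99 ± 0.50, which was not called (adjusted p = 0.183). A link between these genes was not tested.

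The genes most like each called member were sought by the root mean square difference between centred log2 values over the 17 arrays, among 14470 genes. Itm2a, a membrane protein, lay nearest to Kcnj2, at 0.154 log2 units against a median gene at 0.647, followed by Rangrf at 0.252 and Acadvl, an enzyme of fatty acid oxidation, at 0.261. Rptor, Gpatch1 and the calcium release channel Ryr2 were nearest to Kcnd3 (0.193, 0.195 and 0.206, median gene 0.763). For Kcnq1 the nearest were Rap1gap2, Slc19a1 and Klhl17 (0.111 to 0.143), for Kcnj11 Fbxw5, Pitpnm2 and Rreb1 (0.121 to 0.139), and for Hcn4 Ogt, the cardiac kinase Tnni3k and Spink8 (0.133 to 0.149). Scn3b had no close neighbour: Frmd3, Plagl1 and Lxn were nearest, at 0.61 to 0.615, beside its own SD of 1.157. Between members, this difference was smallest for Kcnj11 and Hcn4 at 0.236, and largest for Kcnd3 and Scn3b at 1.687. It is not scaled to spread, and the SDs of Kcnj11 and Hcn4 were 0.359 and 0.357. These distances describe the same 17 arrays and carry no test.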

How the data were processed

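Log2 expression values of 29214 probe sets on 17 Affymetrix arrays were used as deposited. The authors made these log2 values with RMA, per the submitters' processing notes, which subtracts background, makes array distributions alike by quantile normalization and summarises probes, and a shift common to most genes is lost in this step. The RMA version and how probe sets were defined are not stated in what was used here. Values ran from 1.28 to 14.29. Of the probe sets, 15310 had 1 gene symbol in the platform annotation, 323 several and 13581 none, and 15279 symbols were updated through an NCBI RefSeq table (GRCr8).

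Testing used limma 3.58.1 in R 4.3.3 (lmFit and eBayes, two-sided), with all 17 arrays and 4 groups in 1 fit, 13 residual and 3.32 prior degrees of freedom, and 6 comparisons each adjusted over all probe sets. The procedure was tested on simulated data. The named genes were the 9 members and, from each of 7 related lists, up to 4 called genes per comparison by smallest p, or the gene with the smallest p where none was called, of which those with bearing on a member are given. Of the 9 marker lists, those of endothelium, smooth muscle, leukocytes, neural and atrial cells are in the closing section. The members and lists were chosen with earlier results of these data known. Numbers in the titles of 2 before NHD samples are doubled, and the last was used. Same-numbered samples were not treated as pairs, since the labels do not state whether replicate numbers pair samples. The replicate number as a block was run as an alternative. Each value comes from a handful of arrays, whose number sets its precision.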

Additional observations from a re-analysis of the deposited data

Results flagged for a closer look

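Among the 18 sets of 6 arrays (9 genes, before and after NHD), 1 held an array that stood apart under Dixon's test (95% level), which chance alone does in about 1 of 20 sets. Kcnd2 read 8.20 on before replicate 4, while the other before NHD arrays lay between 9.64 and 10.04, a gap of 0.783 of the whole range. The after NHD sample of the same number read 8.45, the lowest of its group.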

How the results depend on the processing

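Of 1458 recomputed differences (9 genes, 6 comparisons, 10 settings and 17 arrays left out in turn), 1373 kept their side of the threshold, 48 lost a call, 37 gained one and 0 called differences changed sign. Array weights raised the counts of called genes from 0 to 2 after minus before NHD. Against control plasma they rose from 3 to 6 before NHD and from 2 to 6 with phenylephrine. For phenylephrine they rose from 0 to 3 against before and from 1 to 2 against after NHD. Of all probe sets, array weights called 10.9% after minus before NHD, 23.7% before NHD and 43.1% with phenylephrine against control plasma. For phenylephrine the shares were 16.3% against before and 9.99% against after NHD. A 1.5-fold minimum lowered the counts to 2 after NHD (Kcnd3 and Scn3b) and to 0 before NHD and with phenylephrine against control plasma. For phenylephrine against after NHD the count was 0. With this minimum, 1.7% of all probe sets were called after NHD and 0.986% with phenylephrine against control plasma. The share for phenylephrine against after NHD was 0.0274%. A fit of the compared groups alone gave 0 before NHD, with 0% of all probe sets called, and 5 with phenylephrine against control plasma. The SD of each array as a covariate gave 0 and 1 in these comparisons. Taking the replicate number as a block, counts were 4 for phenylephrine against control plasma, 2 against before NHD, 4 before NHD and 7 after NHD against control plasma, with Kcnh2 gained in all 3 comparisons with control plasma (phenylephrine 0.63, adjusted p = 0.025; before NHD 0.74, 0.0139; after NHD 0.52, 0.0193). The block also gained Kcnj3 with phenylephrine against control plasma (-0.85, adjusted p = 0.0348) and before NHD (-1.19, adjusted p = 0.0171), and Kcnd2 in the latter (-1.64, adjusted p = 0.0259). The correlation of same-numbered before and after deviations ran from -0.0254 to 0.599, and 3 of 6 samples matched their own number best. Without the samples numbered 4, counts were 1 after minus before NHD (Scn3b) and 1 for phenylephrine minus before NHD (Kcnd2). The cause of these shifts was not tested.

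With 1 array left out, counts ran from 0 to 2 after minus before NHD, 0 to 5 before NHD, 5 to 6 after NHD and 0 to 3 with phenylephrine against control plasma, and for phenylephrine 0 to 1 against both uremic groups. A lone phenylephrine array was taken to vary like the other groups. The percent of all probe sets called ran, over all these settings, from 0 to 10.9 after minus before NHD (0.397 in the main analysis), 0 to 23.7 before NHD (4.93), 1.7 to 51.1 after NHD (28.2) and 0.986 to 43.1 with phenylephrine (18.7) against control plasma, and for phenylephrine from 0.0787 to 16.3 against before (4.34) and 0.0274 to 9.99 against after NHD (0.979). No other probe set of a member exists in the table, so that alternative was not run.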

Other observations

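Markers of other cell types that such a culture can hold were measured on the same arrays. Beside the counts below, 2.88% of all probe sets were higher and 2.05% lower before NHD than with control plasma. These shares were 12.9% and 15.3% after NHD, and 8.54% and 10.2% with phenylephrine. Atrial myocyte markers were higher than control plasma in 3 of 6 genes after NHD, 1 before NHD and 3 with phenylephrine, and 0 were lower. Of 12 fibroblast genes, 1 was higher after NHD and 1 with phenylephrine against control plasma, and their mean was 7.71 to 7.85 with control plasma, 6.70 to 9.26 before NHD, 6.93 to 9.15 after NHD and 9.24 to 9.50 with phenylephrine. Smooth muscle and pericyte genes had 1 of 8 higher and 2 lower after NHD and 2 higher and 1 lower with phenylephrine. Endothelial genes had 1 of 9 higher before and after NHD and 2 with phenylephrine. Of 10 leukocyte and 8 neural genes, 1 each was lower after NHD and none was called before NHD or with phenylephrine, and 8 of the 10 leukocyte genes and 7 of the 9 endothelial genes were dimmer than the median probe set.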
